A study of Mus musculus with 9 samples.

Results

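Mouse CD4 T cells cultured with purified TGFβ1 to induce regulatory T cells (purified-TGFβ iTreg, 3 arrays) were compared with conventional T cells (Tconv, 3 arrays) across all genes of a whole-genome Affymetrix expression array. The comparison took every probe set that was not an Affymetrix control, 45037 in all, and let the probe set with the highest mean over the study's 9 arrays stand for each of 18193 named genes. The remaining 3 arrays, from cells given TGFβ out of platelets (platelet-TGFβ iTreg), entered the same fit and served as the most similar group. The mice carried a Foxp3-EGFP reporter, in which green fluorescence marks cells that express Foxp3, on a C57BL/6 background. Spleen CD4 cells without the reporter signal were sorted, so the iTreg cultures began with cells that were not Foxp3-positive. They were kept for 72 hours on anti-CD3 at 2.5 µg/ml with anti-CD28 at 1 µg/ml, IL2 at 100 U/ml and purified TGFβ1 at 5 ng/ml. The platelet-TGFβ cultures received lysates of platelets from wild-type C57BL/6 mice in place of the purified protein. The treatment of the Tconv cells is not settled by the labels, because a note attached to all samples also assigns them TGFβ1. The labels do not say whether iTreg cultures were sorted for the reporter again before RNA was taken. The design text calls the 3 arrays of a group biological replicates.

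TGFβ signals through a pair of receptor serine/threonine kinases that phosphorylate SMAD2 and SMAD3, which enter the nucleus with SMAD4 and act with other factors on target genes. In a CD4 T cell stimulated through its antigen receptor in the presence of IL2, this signal can turn on Foxp3 and hold back effector cytokines, and the resulting cells are called induced regulatory T cells. Activated T cells at the same time raise nutrient uptake, protein synthesis and division, so culture state and lineage programme are measured together in such cells.

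The values are log2 expression after robust multichip averaging (RMA), so a difference of 1 is a doubling. Calls required an adjusted p under 0.1 (limma with Benjamini-Hochberg adjustment over all probe sets) and an absolute log2 difference above 0.5, a 1.4-fold change. A number in brackets after a gene is its log2 difference, purified-TGFβ iTreg minus Tconv, unless another quantity is named. Of 18193 genes, 5339 (29.3%) were called. In purified-TGFβ iTreg 2632 (14.5%) were higher and 2707 (14.9%) lower, and the median log2 difference over all genes was -0.17. Of all 45037 probe sets 11640 (25.8%) were called, 6967 (15.5%) higher and 4673 (10.4%) lower. At an adjusted p under 0.05 and a 2-fold change 2033 genes (11.2%) were called. The near balance of the genes depends on the scaling, with 2262 genes higher and 3591 lower after quantile normalization, and 2833 higher and 2181 lower after centring array medians. The arrays of the groups did not overlap for 11403 genes (62.7%), so a gene without overlap was the common case. Large differences leaned upward: 261 genes were more than 4-fold higher and 86 more than 4-fold lower, and 27 against 6 passed 16-fold. Calls also rose with signal, from 4.32% of the dimmest 6065 genes to 47.2% of the brightest 6064.

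Tconv and purified-TGFβ iTreg arrays came from different animals, and their sex-linked genes differed. Xist, transcribed from the inactive X chromosome of females, was 10.63, 10.85 and 10.94 on the Tconv arrays and 3.37, 3.75 and 3.72 on the purified-TGFβ arrays. The Y-linked Eif2s3y and Kdm5d were higher in purified-TGFβ iTreg by 6.31 and 4.79 on the log2 scale. Animal, sex and culture cannot be told apart in any difference between these groups. In bulk RNA, fewer cells of a type and less RNA per cell cannot be told apart either. Foxp3 was at 3.66, 3.84 and 3.88 in Tconv and 3.68, 3.84 and 3.81 in purified-TGFβ iTreg, a low signal with overlapping groups, a log2 difference of -0.02 and a 95% interval from -0.21 to 0.17. Il2ra, the high-affinity IL2 receptor chain, was higher by 1.68. Of 8 T cell markers measured, 0 were higher and 3 lower, namely Zap70 (-1.15), Cd5 (-0.84) and Cd247 (-0.65), and their mean signal ran from 10.73 to 10.88 in Tconv and from 10.44 to 10.50 in purified-TGFβ iTreg. The 2 CD4 lineage markers measured, Cd4 and Zbtb7b, were both lower (-0.72 and -0.8). None of 12 myeloid markers was called, and 1 of 9 B cell (Cd79b, -1.46), 1 of 7 platelet (Itga2b, -0.63) and 1 of 4 erythroid markers (Klf1, -0.56, a call lost under some alternatives) were lower. Among 5 CD8 or NK markers Klrd1 was higher by 3.17, and Eomes and Cd8b1 were lower (-1.31 and -0.98). The part of other cell types in the results was not tested.

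Rises were ranked by size among genes whose arrays did not overlap, and those at ranks 11 to 40 ran from Dgkh down to Ptprj. Separation of the groups was thus a condition of the ranking, as was a call. Dgkh, a kinase that converts the second messenger diacylglycerol to phosphatidic acid, read 4.05, 3.9 and 3.97 in Tconv and 8.91, 8.69 and 8.93 in purified-TGFβ iTreg. It lay below the median signal of every Tconv array and above the upper quartile of every purified-TGFβ array, a log2 rise of 4.87 (SE 0.09, limma adjusted p = 1.13e-11). Aqp3, a water and glycerol channel, stood at 5.14, 5.64 and 5.45 in Tconv and 9.95, 10.05 and 10.19 in purified-TGFβ iTreg. The rise of Aqp3 was 4.65 (SE 0.12, limma adjusted p = 1.63e-10). Vim, which encodes the intermediate filament vimentin, went from 7.92, 8.22 and 8.15 to 12.57, 12.62 and 12.61, among the brightest signals on the iTreg arrays. Slc39a8, an importer of zinc and manganese, was 5.75, 6.08 and 5.76 in Tconv and 9.97, 9.94 and 9.89 in purified-TGFβ iTreg. The Slc39a8 arrays lay close together within each group, with a rise of 4.07. Trp53inp1, a p53-induced stress protein, read 7.18, 7.35 and 7.06 against 11.39, 11.19 and 11.64, and Ffar4, a receptor for long-chain fatty acids, 3.56, 3.53 and 3.62 against 7.43, 7.5 and 7.65. Their rises were 4.21 and 3.96.

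Other genes at these ranks encode adhesion, matrix and cell shape proteins. Pdlim5, a PDZ and LIM adaptor on actin filaments, was 6.49, 6.54 and 6.58 in Tconv and 10.95, 10.84 and 10.94 in purified-TGFβ iTreg. Dsp and Dst, plakins that tie filaments to junctions, were higher by 4.26 and 4.03, Enah, which extends actin filaments, by 3.58, and Fnbp1l, which bends membrane, by 3.77. Adam19, a membrane sheddase, was higher by 4.32, Fbln2, an extracellular matrix protein, by 3.73, and Plod2, the collagen lysyl hydroxylase, by 3.54. St8sia4, which builds polysialic acid, was higher by 3.97, and Anxa3, a calcium-dependent phospholipid-binding protein, by 4.44. Ccr6 and its ligand Ccl20, a chemokine receptor pair of mucosal and Th17-type T cells, were both higher, by 3.64 and 3.58. Kcnk6, a background potassium channel, was higher by 3.85, Ctla2a, a cathepsin inhibitor, by 4.26, Igfbp4, which binds insulin-like growth factors, by 3.52, and the receptor phosphatase Ptprj by 3.46.

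The falls at ranks 11 to 40 ran from Trat1 to Serpinb6b and included the cytokine genes Il2, Il4 and Csf2 and the inflammatory caspases Casp1 and Casp4. Trat1, an adaptor that stabilises the T cell receptor complex, was 8.99, 9.47 and 9.03 in Tconv and 5.6, 5.3 and 5.69 in purified-TGFβ iTreg. Trat1 fell by 3.63 on the log2 scale (SE 0.14, limma adjusted p = 3.67e-09). Csf2, which encodes GM-CSF, stood at 7.16, 7.1 and 7.2 in Tconv and 4.28, 4.04 and 3.9 in purified-TGFβ iTreg. Casp1, which matures interleukin-1β, read 6.72, 7.26 and 7.0 against 3.94, 4.1 and 4.02. Casp4, which senses bacterial lipopolysaccharide, fell by 3.31. For both Csf2 and Casp1 the iTreg values lay below the median signal of their arrays. Penk, the enkephalin precursor, went from 8.2, 8.34 and 8.28 to 5.25, 5.34 and 5.48. Gpr183, the oxysterol receptor that positions lymphocytes in tissue, went from 8.35, 8.35 and 8.3 to 5.29, 5.31 and 5.52, and Gimap7, a lymphocyte GTPase, from 9.78, 9.86 and 9.78 to 6.48, 6.81 and 6.64. Lack of overlap was a condition of these ranks too. Also lower were Il2 and Il4 (-3.63 and -3.04), the cytotoxic protease Gzmb (-3.36), the adhesion receptor Crtam (-2.83), and Tnfsf14 and Tnfsf8, ligands of the TNF family (-3.06 and -2.71). The list went on with Ryr1, a calcium release channel (-3.54), Itgb3, the integrin β3 chain (-3.01), and Ifitm2, an interferon-induced membrane protein (-3.27).

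**Figure D1:**
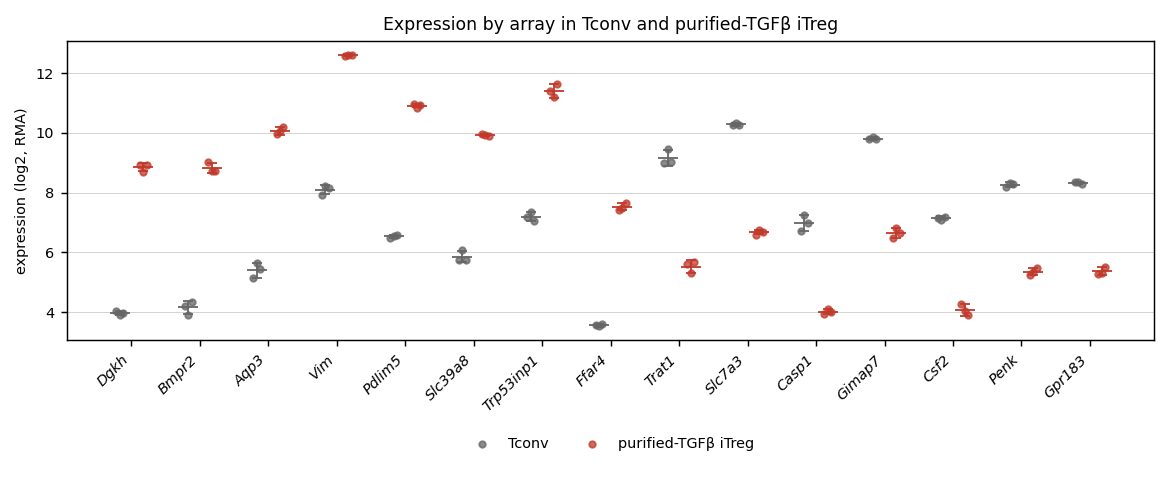
Log2 RMA expression (vertical axis) of 15 genes on each of the 3 Tconv arrays (grey) and 3 purified-TGFβ iTreg arrays (red), with bars for the mean and SD of each group. The first 8 genes are higher in purified-TGFβ iTreg and the last 7 lower, all drawn from ranks that required the arrays of the groups not to overlap.

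The direction of change moved with the length of the gene. Among the brightest 6064 genes, split by genomic span into 4 groups of near equal size, those of 0.073 to 9.81 kb had 175 genes higher (11.5%) and 431 lower (28.4%), with a median log2 difference of -0.22. Those of 46.2 to 1610 kb had 686 higher (45.3%) and 189 lower (12.5%), with a median of 0.39. The groups between lay in order, with 303 higher and 331 lower at 9.81 to 21.9 kb and 507 higher and 239 lower at 21.9 to 46.2 kb. Against platelet-TGFβ iTreg the shortest bright genes were 46 higher and 50 lower and the longest 74 higher and 31 lower. Span came from RefSeq gene models for 18142 of the 18193 genes, whose median is 20.2 kb. The median span of each family is therefore given beside its count against Tconv, and the part of gene length in a family's balance was not tested. On the arrays' own control probe sets, the 3′ minus 5′ log2 signal of Actb was 0.06 to 0.07 in Tconv and 0.03 to 0.06 in purified-TGFβ iTreg, and that of Gapdh -0.16 to -0.09 and -0.24 to -0.20. For Pcx it was -0.22 to 0.40 and 0.45 to 0.58, and for Tfrc 1.36 to 2.38 and 1.53 to 1.58.

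**Figure D2:**
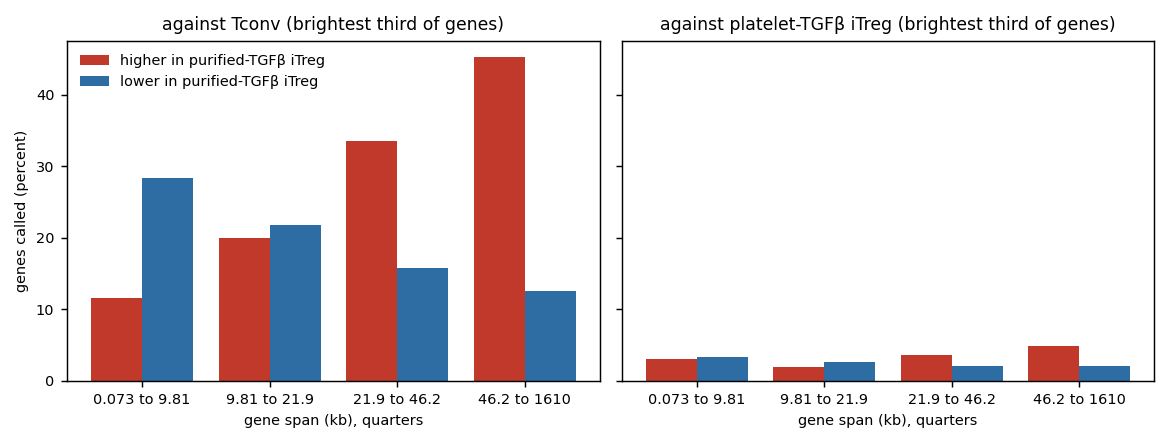
Percent of genes called higher (red) or lower (blue) in purified-TGFβ iTreg among the brightest 6064 genes, in 4 groups of rising genomic span (horizontal axis, kb), against Tconv on the left and against platelet-TGFβ iTreg on the right. Against Tconv the share called higher climbs from 11.5% to 45.3% from the shortest to the longest group, and the share called lower drops from 28.4% to 12.5%.

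A total of 149 gene families and pathways were counted, holding 4494 genes. Each count is to be read against the 14.5% of all genes called higher and the 14.9% called lower, and each median against the -0.17 over all genes. These shares depend on signal. Among the brightest 6064 genes 27.6% were higher and 19.6% lower, and the shares were 0.973% and 3.35% among the dimmest 6065. The part of signal in a family's balance was not tested. Among families of gene regulation, NF-κB subunits and inhibitors had 1 of 17 members higher and 9 lower, with a median of -0.54 and a median span of 17.9 kb. NF-κB is the dimeric factor that carries antigen receptor and TNF receptor signals to the nucleus. Nfkb2, the precursor of its p52 subunit, was 9.27, 9.45 and 9.7 on the Tconv arrays and 7.19, 7.34 and 7.3 on the purified-TGFβ arrays. All 3 iTreg arrays were below all 3 Tconv arrays, a log2 difference of -2.2 (SE 0.12, limma adjusted p = 5.76e-08). Its partner Relb was lower (-1.58), as were the inhibitors Nfkbia, Nfkbid and Nfkbib (-1.11, -1.22 and -1.13). AP-1, BATF and MAF factors, which pair with NFAT on cytokine genes, had 5 of 23 higher and 10 lower (median span 10.5 kb). Within that family Jun rose by 3.13 while Junb, Batf and Batf3 fell (-1.49, -1.8 and -2.6), and Maf, which promotes IL-10, rose by 6.48. NFAT, NR4A and EGR factors had 5 of 17 higher and 7 lower (median span 21.6 kb). Nfat5, which responds to osmotic stress, rose by 2.18. The immediate early genes Egr1, Nr4a1 and Nr4a2, induced soon after receptor stimulation, fell (-1.56, -1.27 and -1.36), while their relative Nr4a3 was higher by 0.52 on its brightest probe set and lower on another (-0.65).

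Among factors that set T cell identity, 4 of 5 Ikaros zinc finger genes were higher and 0 lower, with a median span of 81.4 kb. Ikzf2, which encodes Helios and marks regulatory T cells, read 4.63, 4.74 and 4.64 in Tconv and 7.72, 7.44 and 7.84 in purified-TGFβ iTreg. Ikzf4 (Eos, a Foxp3 partner), Ikzf5 and Ikzf3 (Aiolos) were higher by 1.76, 1.56 and 1.13. Both Gata3, the Th2 factor (-2.56), and Tbx21, the Th1 factor T-bet (-1.15), were lower. RUNX and GATA factors had 4 of 13 higher and 2 lower (median span 56.0 kb). Runx1 and Runx3, partners of Foxp3 and T-bet, were higher by 2.03 and 1.28. Of KLF and SP factors 6 of 23 were higher and 3 lower (median span 11.2 kb), among them Klf2, a factor of T cell recirculation, with a rise of 3.03. Forkhead factors had 8 of 37 higher and 3 lower (median span 5.59 kb). Foxo1 and Foxp1, which act in T cell quiescence, were higher by 1.09 and 1.3. Nuclear receptors were mixed, 6 of 39 higher and 7 lower (median span 49.7 kb), with the glucocorticoid receptor Nr3c1 higher by 1.48.

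Zinc finger genes that carry a number in place of a name (Zfp), most of them DNA-binding proteins and many of them KRAB repressors of repeats, moved mainly upward. Of 331 measured, 110 were higher and 28 lower, with a median of 0.08 at a median span of 17.4 kb. Zfp955b, Zfp715 and Zfp871 were higher by 2.32, 2.08 and 1.83, and Zfp467 was lower (-3.36). ZBTB factors had 13 of 39 higher and 6 lower (median span 21.0 kb), but 10 and 10 after quantile normalization, with Zbtb18 and Zbtb33 higher by 2.9 and 2.12. Of histone deacetylases and sirtuins 2 of 18 were higher and 7 lower (median span 21.0 kb), the NAD-dependent Sirt1 higher by 1.87 and Hdac7 and Hdac10 lower (-1.25 and -1.09). Lysine methyltransferases had 12 of 41 higher and 6 lower, and SWI/SNF and CHD remodellers 12 of 35 higher and 5 lower, both long genes with median spans of 50.9 and 66.5 kb. After quantile normalization the methyltransferases had 11 higher and 11 lower. Polycomb genes and DNA methylation enzymes had 9 of 33 higher and 8 lower (median span 35.3 kb), with Phc3, Suz12 and Bmi1 higher by 2.97, 1.99 and 1.83. Mediator subunits had 8 of 33 higher and 4 lower (median span 18 kb), which quantile normalization turned to 5 against 9. Lysine demethylases had 8 of 26 higher and 5 lower (median span 49.3 kb), which quantile normalization turned to 6 against 7. The higher ones include the Y-linked Kdm5d and Uty (4.79 and 2.15) and the X-linked Kdm6a (0.53, a call lost under some alternatives), and the lower ones the X-linked Kdm5c (-0.92, lost with the mean of its probe sets).

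RNA-handling families differed in direction. SR and hnRNP proteins, which bind pre-mRNA and choose splice sites, had 20 of 31 members higher (64.5%) and 1 lower, with a median of 0.67. Their median span was 13.7 kb, and bright genes of 9.81 to 21.9 kb had 303 higher and 331 lower. Hnrnph1 read 10.25, 10.11 and 10.02 in Tconv and 11.72, 11.46 and 11.56 in purified-TGFβ iTreg. The groups did not overlap, and Hnrnph1 rose by 1.45 (SE 0.09, limma adjusted p = 1.89e-07). Hnrnpdl, Hnrnpll, Srsf6 and Tra2b were higher by 1.3, 1.01, 0.88 and 1.22, Hnrnpll being the factor that switches CD45 splicing in activated T cells. RNA decay genes had 11 of 35 higher and 6 lower (median span 25.3 kb), led by Upf2 of nonsense-mediated decay (2.37) and the decapping enzyme Dcp2 (1.65). Of mRNA-destabilising zinc finger proteins 4 of 10 were higher and 0 lower (median span 39.2 kb), including Rc3h1 and Rc3h2 (0.95 and 1.91), the Roquin proteins that degrade costimulator and cytokine mRNAs. Snrp, Lsm and Prpf genes of the core spliceosome were mixed, with 7 of 49 higher and 9 lower (median span 14.5 kb), a balance that another scaling turned. DEAD and DEAH helicases had 15 of 51 higher and 10 lower (median span 22.1 kb), which quantile normalization turned to 13 against 18.

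Several families of protein synthesis held mainly falls, but cytosolic ribosomal proteins and translation initiation factors did not. Cytosolic tRNA synthetases, which charge tRNAs for the ribosome, had 0 of 21 higher and 13 lower (61.9%), with a median of -0.57 at a median span of 23.9 kb. Sars, the serine enzyme, was 11.8, 11.81 and 11.8 in Tconv and 10.52, 10.54 and 10.46 in purified-TGFβ iTreg. The spread within each group was far smaller than the gap between them, and Sars fell by 1.3 (SE 0.07, limma adjusted p = 5.64e-08). Cars, Yars, Lars and Mars1 fell (-1.06, -1.19, -0.78 and -0.75). Their mitochondrial counterparts had 0 of 16 higher and 7 lower (median span 25.1 kb), including Fars2 and Vars2 (-0.96 and -0.83). Mitochondrial ribosomal proteins had 1 of 76 higher and 29 lower (38.2%), with a median of -0.44. They are short genes, 7.69 kb at the median, and of bright genes up to 9.81 kb 28.4% were lower. Mrps10 read 10.98, 11.08 and 11.09 against 9.84, 9.77 and 9.81, a log2 difference of -1.24, and Mrps28, Mrpl38 and Mrps27 fell (-1.17, -1.37 and -1.1). Cytosolic ribosomal proteins, shorter still at 3.35 kb, had 2 of 49 higher and 2 lower and a median of -0.08. Ribosome biogenesis genes had 4 of 53 higher and 20 lower (median span 14.5 kb), with Noc2l and Rrp9 lower (-1.03 and -0.95) and the snoRNP protein Nop58 and Mphosph10 higher (1.24 and 1.26). Translation initiation factors had 13 of 49 higher and 6 lower (median span 19.5 kb), 1 of the 13 being the Y-linked Eif2s3y, among them Eif4e3 and Eif5a2 higher (1.47 and 2.13) and the initiation inhibitor Eif4ebp1 lower (-1.28).

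**Figure D3:**
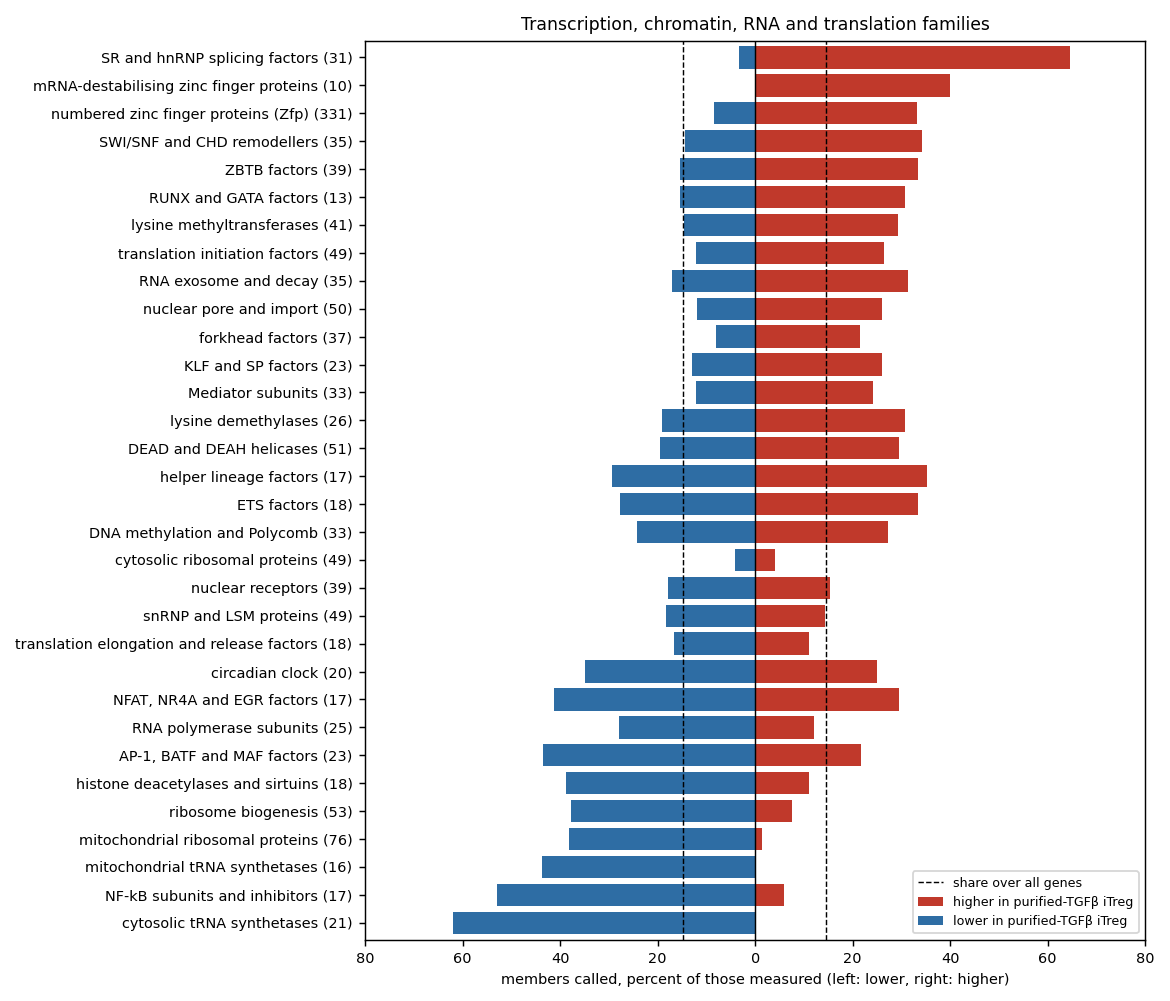
Percent of measured members called higher (red, to the right) or lower (blue, to the left) in purified-TGFβ iTreg for families of transcription, chromatin, RNA and translation with at least 10 genes (number in brackets), with dashed lines at 14.5% and 14.9% over all genes. SR and hnRNP splicing factors stand at the top with 64.5% higher, and cytosolic tRNA synthetases at the bottom with 61.9% lower.

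Genes of the amino acid stress response were mostly lower in purified-TGFβ iTreg. ATF4 is a transcription factor that is translated when amino acids run short or the endoplasmic reticulum is strained, and it turns on amino acid synthesis, amino acid import and tRNA charging. Of 28 genes known to respond to it, 1 was higher and 20 were lower, with a median of -1.04 and a median span of 13.9 kb. Of 25 such genes with a start site in the RefSeq promoter table, 8 (32.0%) held the composite site TGATGNAA, by which ATF4 and C/EBP partners bind DNA, on either strand between 250 bases before and 50 after a start. The background was 468 of all 14452 genes with such a window (3.24%). Among called genes with a promoter, 5 of 17 that were lower (29.4%) held it, as did the 1 that was higher. Of those not called 2 of 7 (28.6%) held it, a share near that of the lower genes. The sites in the called genes with the lowest adjusted p are shown in capitals on the gene's strand (RefSeq, GRCm38.p6), because they occur in genes of both directions.
Asns, chr6:7693210-7693258, minus strand: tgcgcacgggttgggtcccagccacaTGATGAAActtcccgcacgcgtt
Nupr1, chr7:126625547-126625606, minus strand: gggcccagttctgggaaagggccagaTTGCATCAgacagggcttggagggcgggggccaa
Pck2, chr14:55540137-55540196, plus strand: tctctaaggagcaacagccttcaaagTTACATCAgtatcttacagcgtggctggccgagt
Trib3, chr2:152344028-152344057, minus strand: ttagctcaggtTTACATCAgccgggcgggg
Chac1, chr2:119351023-119351082, plus strand: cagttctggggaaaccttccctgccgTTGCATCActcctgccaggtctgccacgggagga

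Asns, asparagine synthetase, has the site's first base at position -23 from its start and read 11.72, 11.82 and 11.71 in Tconv and 9.61, 9.67 and 9.68 in purified-TGFβ iTreg. It fell by 2.1 (SE 0.07, limma adjusted p = 2.5e-09) with wide separation of the groups. Pck2, the mitochondrial enzyme that makes phosphoenolpyruvate, has the reverse complement at position -103 and went from 10.74, 10.86 and 11.03 to 8.89, 9.04 and 8.93. Chac1, which degrades glutathione, has it at position -193 and went from 9.32, 9.49 and 9.4 to 7.5, 7.48 and 7.6. Both were lower on every iTreg array (-1.93 and -1.88). Trib3, a pseudokinase that feeds back on ATF4, has it at base 15 of the transcript and fell by 1.73. Nupr1, a stress-induced chromatin protein, carries the same octamer as Chac1, at position -110. Nupr1 read 5.81, 5.91 and 5.93 in Tconv and 8.24, 7.95 and 8.16 in purified-TGFβ iTreg, so it moved against the rest, with a rise of 2.24 (SE 0.09, limma adjusted p = 5.49e-09). Atf4 mRNA itself was lower (-0.72), as was Ddit3, the downstream stress factor CHOP (-1.92). Slc7a3, a transporter of arginine and lysine, was 10.27, 10.34 and 10.26 in Tconv and 6.6, 6.74 and 6.68 in purified-TGFβ iTreg. In cytosolic tRNA synthetases, 5 of 14 promoters (35.7%) held the motif, 4 of them in genes that were lower (Aars, Gars, Iars and Yars). Serine, glycine and one-carbon genes held it in 0 of 18, though 12 of 22 measured were lower, and no match says only that these letters were not in the window.

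Purified-TGFβ iTreg also differed from platelet-TGFβ iTreg in this response, in a comparison that shares the purified-TGFβ arrays with the one against Tconv. Over all genes 748 (4.11%) were called between the iTreg groups, 467 (2.57%) higher with purified TGFβ and 281 (1.54%) lower. Of the 28 ATF4-responsive genes 10 were higher with purified TGFβ and 0 lower. Pck2 was at 7.87, 7.85 and 7.85 on the platelet-TGFβ arrays, below both other groups, and higher with purified TGFβ by 1.1 (SE 0.09, limma adjusted p = 2.05e-05). Chac1 and Trib3 were higher by 0.89 and 0.88, and Asns by 0.73. Nupr1 was higher than in both Tconv and platelet-TGFβ iTreg, by 1.95 against the latter. Atf4 mRNA differed by 0.0 between the iTreg groups and was not called. Cytosolic tRNA synthetases had 0 of 21 called between them, which the 4.11% over all genes does not set apart.

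Central carbon metabolism also held more falls than rises against Tconv. Glycolysis genes had 0 of 23 higher and 11 lower (47.8%), with a median of -0.47 at a median span of 19.8 kb. Ldhb, a lactate dehydrogenase subunit, read 9.16, 9.35 and 9.27 in Tconv and 7.5, 7.63 and 7.62 in purified-TGFβ iTreg. The groups were well apart, with a log2 difference of -1.67 (SE 0.08, limma adjusted p = 2.13e-08). Lower too were the glucose transporter Slc2a3 (-1.88), phosphofructokinase Pfkm (-1.18), Pfkfb4, which sets the level of its activator (-1.21), Aldoc (-1.31) and hexokinase Hk2 (-0.59). Ldha and Pgk1, among the brightest of the pathway, differed by 0.08 and -0.18 and were not called. Serine, glycine and one-carbon genes had 3 of 22 higher and 12 lower (median span 23.5 kb), the latter including Cth, which makes cysteine (-3.46), Psph, the last step of serine synthesis (-1.26), and mitochondrial Shmt2 and Mthfd2 (-1.11 and -1.05). Glutathione, thioredoxin and NRF2 genes had 3 of 55 higher and 17 lower (median span 13 kb), with the glutathione transferases Gstt2, Gstt1 and Gstm5 lower (-2.59, -2.34 and -1.82). Txnip, an inhibitor of thioredoxin and of glucose uptake, went the other way (1.32).

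Mitochondrial families differed. Complex I subunits and assembly factors had 3 of 43 higher and 12 lower, including the core subunit Ndufs8 (-0.9). Complexes III and IV had 1 of 26 higher and 5 lower (19.2%), close to the 14.9% of all genes. Protein import genes had 2 of 29 higher and 10 lower, with Timm50 and Tomm40 lower (-0.89 and -0.72). These are short genes, with median spans of 7.69, 4.30 and 9.39 kb. ATP synthase genes, also short at 7.13 kb, had 0 of 17 higher and 1 lower (5.88%), below the share of all genes. Fatty acid oxidation genes had 4 of 25 higher and 8 lower (median span 25 kb), with Decr1, Eci2 and Acads lower (-1.1, -0.86 and -0.9). TCA cycle genes had 5 of 30 higher and 8 lower (median span 22.4 kb), and Idh2, the mitochondrial NADP-dependent isocitrate dehydrogenase, fell by 1.49. Carriers of the inner membrane (Slc25) had 6 of 44 higher and 6 lower (median span 21.1 kb), near the shares of all genes: Slc25a33, which carries pyrimidine nucleotides, and the citrate carrier Slc25a1 were lower (-2.0 and -1.11), and Slc25a46, Slc25a36 and Slc25a40 were higher by 1.6, 1.16 and 1.09.

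Lipid and retinoid genes differed by pathway. Cholesterol synthesis had 2 of 22 genes higher and 9 lower (median span 16.2 kb) against Tconv, the latter including Pmvk of the mevalonate pathway (-1.66), Mvd (-1.01) and Lss, which closes the sterol rings (-1.23). Between the iTreg groups the same 22 genes had 7 higher and 0 lower with purified TGFβ, against 2.57% higher and 1.54% lower over all genes. Fatty acid synthesis and desaturation had 6 of 25 higher and 4 lower (median span 40.7 kb), the desaturase Scd1 and elongase Elovl6 higher (1.5 and 1.45) and Fads2 lower (-1.8). Acsl6, which activates long-chain fatty acids, was higher by 3.0. Aldehyde dehydrogenases and retinoid genes had 2 of 50 higher and 15 lower (median span 18.9 kb). Crabp2, which carries retinoic acid to its receptor (-4.87), the receptor Rxra (-1.21) and Rdh11 (-1.4) were lower, while Rdh10, which starts retinoic acid synthesis, rose by 1.58.

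Zinc transporters and metallothioneins had 12 of 28 higher and 4 lower (median span 17.7 kb), with Slc39a6 and Slc30a4 higher by 1.12 and 1.45 and the metal-binding Mt2 by 1.2. Amino acid transporters had 6 of 60 higher and 13 lower (median span 33.9 kb), including Slc3a2, the heavy chain that several of them share (-0.93), and Slc43a1 (-1.16). Glycosyltransferases had 22 of 93 higher and 12 lower (median span 42.3 kb), with Fut7, which makes selectin ligands, Fut8 and B4galt1 higher by 1.71, 1.78 and 1.8. Iron and haem genes had 5 of 26 higher and 6 lower (median span 18.4 kb), a balance that another scaling turned. The transferrin receptor Tfrc was higher by 1.55, and Alas1, which starts haem synthesis, lower (-0.92). Calcium handling genes had 7 of 33 higher and 8 lower (median span 74.2 kb). Orai1, the pore of store-operated calcium entry, fell by 1.48, and the cation channel kinase Trpm7 rose by 2.16. Of 80 potassium channel genes 2 were higher and 6 lower (median span 32.7 kb).

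**Figure D4:**
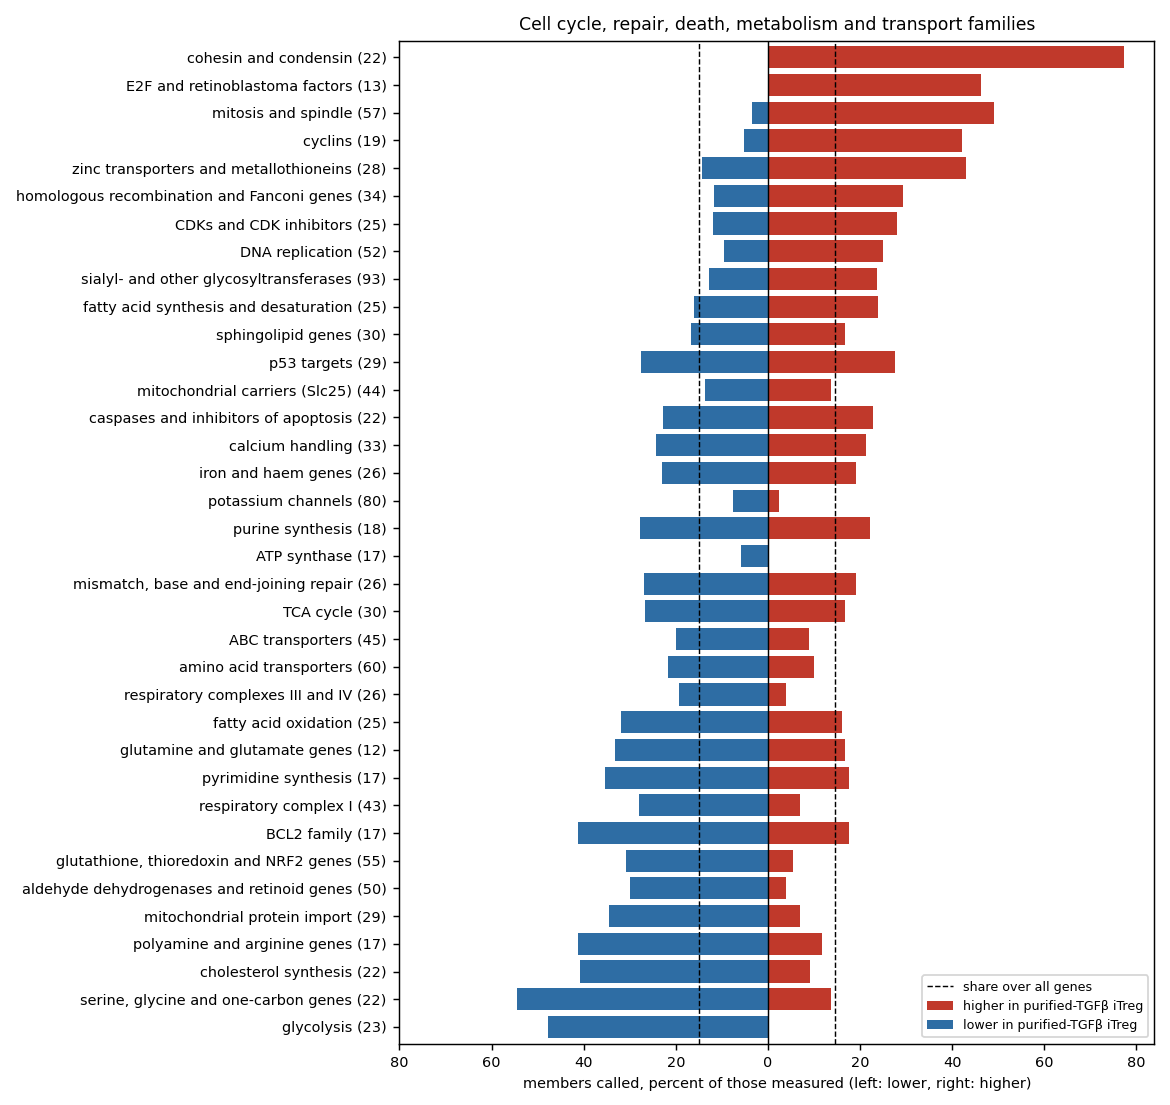
Percent of measured members called higher (red, to the right) or lower (blue, to the left) in purified-TGFβ iTreg for families of the cell cycle, repair, death, metabolism and transport with at least 10 genes (number in brackets), with dashed lines at 14.5% and 14.9% over all genes. Cohesin and condensin genes stand at the top with 77.3% higher, and glycolysis at the bottom with 47.8% lower and 0 higher.

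Genes that hold, fold and part chromosomes were high. Cohesin rings hold sister chromatids and form chromatin loops, and condensin compacts chromosomes in mitosis. Of 22 such genes 17 (77.3%) were higher and 0 lower, with a median of 1.33. They are long genes, 47.3 kb at the median, and of bright genes above 46.2 kb 45.3% were higher. Smc2, a core condensin subunit, read 8.87, 9.06 and 8.91 in Tconv and 11.12, 10.83 and 10.97 in purified-TGFβ iTreg. Stag2, a cohesin subunit, read 7.85, 8.27 and 8.12 and 10.02, 9.72 and 9.94. Both sets of arrays separated, with rises of 2.03 (SE 0.1) and 1.81 (SE 0.12). Stag1, Ncapg2 and Pds5b were higher by 1.7, 2.04 and 1.88, and Rad21, the ring's clasp, by 0.54. Between the iTreg groups 0 of the 22 were called, against 4.11% of all genes, so a family of this size is not set apart.

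Division genes pointed upward as well. Mitosis and spindle genes had 28 of 57 higher and 2 lower, with a median of 0.50 and a median span of 26.7 kb. The spindle motor Kif11 was higher by 2.15, the proliferation antigen Mki67 by 1.75, Nusap1 by 1.61 and the kinetochore protein Spc25 by 1.6. E2F and retinoblastoma genes had 6 of 13 higher and 0 lower (median span 39.7 kb). The higher ones include brakes of the cycle (Rb1, Rbl1 and Rbl2, by 1.28, 1.55 and 0.8), E2f3 (1.34) and the repressor E2f7 (1.3). Cyclins had 8 of 19 higher and 1 lower (median span 16.1 kb), with Ccne2 of S phase entry higher by 2.64 and Ccng2, a cyclin of arrested cells, by 1.73. CDKs and their inhibitors had 7 of 25 higher and 3 lower (median span 12 kb). The inhibitor Cdkn1b (p27) was higher by 1.9 and Cdkn1a (p21) lower (-0.93). DNA replication had 13 of 52 higher and 5 lower (median span 19.5 kb), with the polymerase gene Pola1 higher by 1.37 and Pold2 lower (-1.13). The E2F motif TTTNGCGC lay in 11 of 43 replication promoters (25.6%) against 336 of 14452 (2.32%), and of those 11 genes 1 was higher, 1 was lower and 9 were not called.

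In cell death pathways the members opposed each other. Of the BCL2 family 3 of 17 were higher and 7 lower (median span 17.8 kb). The survival gene Bcl2 rose by 1.79 while Bcl2l1 (BCL-XL), also a survival gene, fell by 1.65. Among proteins that oppose them, Pmaip1 (NOXA) rose by 2.42 and Bcl2l11 (BIM) fell by 0.78. Caspases and their inhibitors had 5 of 22 higher and 5 lower (median span 22.1 kb), with Casp8 of the death receptor route higher by 1.21 and Xiap higher by 2.11. Genes known to respond to p53 had 8 of 29 higher and 8 lower (median span 16.9 kb), with Perp and Ccng2 high (2.24 and 1.73) and Plk2 low (-3.64).

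Ubiquitin-specific and other deubiquitinating proteases had 25 of 58 higher and 5 lower, at a median span of 48.0 kb, with Otud4, Usp1 and Otud6b higher by 1.67, 1.21 and 1.37. Conjugating enzymes had 7 of 29 higher and 4 lower (median span 30.5 kb), and proteasome genes 3 of 47 higher and 9 lower (median span 12.3 kb). E3 ligases of T cell tolerance had 7 of 16 higher and 4 lower (median span 63.8 kb): Peli1 and Ndfip2, an activator of Itch-type ligases, were higher (1.14 and 1.21), and Cblb, which restrains costimulation, was lower (-1.42). Lysosomal hydrolases and membrane proteins had 5 of 34 higher and 11 lower (median span 21.3 kb), the glycosidases Gaa and Naglu lower (-1.95 and -1.89) and the membrane protein Lamp2 higher by 1.53. Cathepsins and cystatins had 6 of 24 higher and 3 lower (median span 8.35 kb). Cathepsin W (Ctsw) was higher by 3.06 and the cystatin Cst7 lower (-3.79). Autophagy genes had 10 of 37 higher and 8 lower (median span 29.7 kb), a balance that quantile normalization turned to 6 against 12. Within it Rb1cc1, a subunit of the initiating kinase complex, and the mitophagy receptor Bnip3 were higher by 2.68 and 1.92.

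Cytoskeletal families held large changes in both directions. Actin nucleation and turnover had 17 of 66 higher and 12 lower (median span 31.4 kb), but 15 and 15 after quantile normalization. Pfn2 and Enah were higher (6.09 and 3.58) and the Enah paralogue Evl and the severing protein Gsn lower (-4.06 and -3.68). Among formins Fmnl2 was higher by 2.62. Of 47 myosins 3 were higher and 3 lower (median span 41.2 kb), Myo6 and Myo5a higher (1.77 and 1.48) and Myh10 lower (-2.25). Kinesins and dyneins had 13 of 53 higher and 5 lower (median span 42.0 kb), with Kif5b of organelle transport at 1.87.

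Genes of the TGFβ pathway itself rose at several levels. Ligands, receptors and SMADs had 8 of 28 higher and 3 lower, at a median span of 69.0 kb. Tgfbr1, the type I receptor, read 6.32, 6.66 and 6.54 in Tconv and 10.78, 10.66 and 10.64 in purified-TGFβ iTreg. Bmpr2, the type II receptor for bone morphogenetic proteins, read 4.22, 3.92 and 4.34 and 9.01, 8.73 and 8.71. Both moved from dim or middling to bright signals, by 4.19 (SE 0.1) and 4.66 (SE 0.12). Tgfbr2 and the activin receptor Acvr2a were higher by 1.07 and 2.61, while the ligand Tgfb1 (-1.03) and the signal carrier Smad3 (-0.7) were lower. Negative feedback genes had 9 of 22 higher and 2 lower (median span 45.1 kb). Skil, a SMAD corepressor, read 7.61, 7.57 and 7.63 against 10.73, 10.58 and 10.63, and Ldlrad4, which keeps SMADs from the receptor, 3.77, 3.58 and 4.17 against 7.91, 7.76 and 7.74. They rose by 3.04 and 3.97, Klf10 by 2.85, Pmepa1 by 2.31 and the inhibitory Smad7 by 0.77. Against platelet-TGFβ iTreg, 4 of the 28 ligand, receptor and SMAD genes and 5 of the 22 feedback genes were higher and 0 of either lower, with Ldlrad4 higher by 1.87, Bmpr2 by 0.97 and Smad7 by 0.83. Over all genes 2.57% were higher and 1.54% lower in that comparison.

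Cytokine and receptor genes were called in both directions, some families near the shares of all genes. Interleukin genes had 1 of 28 higher and 5 lower (median span 6.4 kb), with Il13 lower (-1.42) beside Il2 and Il4. Receptors had 5 of 29 higher (17.2%) and 4 lower (13.8%), near the shares of all genes (median span 32.4 kb), a balance that another scaling turned. Il18r1 was higher by 2.97, and Il21r, Il15ra and Il4ra lower (-1.23, -1.09 and -0.95). JAK kinases and STAT factors had 1 of 10 higher and 3 lower (median span 40.1 kb). Stat4, which carries IL-12 signals (-1.97), and Jak3, the kinase of the common γ chain (-0.85), were lower. Chemokines had 5 of 33 higher and 5 lower (15.2% each), near the 14.5% and 14.9% of all genes (median span 4.13 kb). Among them Xcl1, Ccl1 and Ccl3 were higher (2.91, 2.43 and 1.11) and Ccl5 lower (-1.74). Chemokine receptors had 5 of 21 higher and 3 lower (median span 9.71 kb), among them the inflammatory homing receptor Cxcr3 (1.81), Cxcr4 (1.13), Ccr8 (1.12), which marks tissue regulatory T cells, and Cx3cr1 (1.56). Lipid and prostaglandin receptors had 4 of 26 higher and 9 lower (median span 13.1 kb). S1pr1, the exit receptor of lymph nodes, was higher by 1.64, and the prostacyclin receptor Ptgir lower (-2.39). Gpr15, a receptor for homing to the colon, was higher by 1.95.

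Costimulatory families held more falls than rises. TNF receptors had 2 of 25 higher and 7 lower (median span 16.9 kb), the activation receptors Tnfrsf4 (OX40), Tnfrsf18 (GITR) and Tnfrsf9 (4-1BB) lower (-1.41, -1.34 and -1.34) and Cd40 and Tnfrsf13b higher by 2.68 and 2.21. Tnfrsf18 is also a marker of regulatory T cells. Other such markers, Il2ra (1.68), Itgae (1.46), Ikzf2 and Ikzf4, were higher, and Foxp3 was not called. Ctla4 and Lrrc32, also such markers, are not described here, so the markers were not counted as a set. TNF ligands had 4 of 13 higher and 6 lower (median span 7.8 kb), with the death ligand Tnfsf10 (TRAIL) higher by 2.98 and the lymphotoxins Lta and Ltb by 1.65 and 1.26. SLAM receptors had 1 of 9 higher and 5 lower (median span 20.6 kb), Slamf7 and Slamf6 lower (-1.7 and -1.13) and their relative Cd48 higher (1.23). MHC and peptide loading genes had 1 of 30 higher and 9 lower (median span 4.86 kb), with the class II genes H2-Ab1 and H2-Eb1 and their chaperone Cd74 lower (-1.66, -1.03 and -1.07). Semaphorins, plexins and neuropilins had 3 of 30 higher and 9 lower (median span 40.2 kb), Sema4a and Sema4b lower (-2.54 and -1.89) and Nrp1, a receptor found on regulatory T cells, higher (2.17). Tetraspanins had 3 of 25 higher and 8 lower (median span 27.9 kb), including Tspan4, Tspan3 and Cd82 (-1.91, -1.76 and -1.35). Integrin chains had 3 of 24 higher and 4 lower (median span 56.4 kb), but 3 and 3 after quantile normalization or centring. Itgae (CD103), Itgav, which activates latent TGFβ, and Itga6 were higher by 1.46, 1.81 and 2.07, and Itgb3, Itgal, Itga2b and Itga5 lower (-3.01, -0.84, -0.63 and -0.52). None of 42 collagen genes was higher and 8 were lower, of which Col5a3 fell most (-1.4). Collagen genes were dim, with a median signal of 3.87, and long, with a median span of 110.0 kb.

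Intracellular signalling showed opposed changes within families. PI3K and AKT pathway genes, lipid kinases with the protein kinases and phosphatases around them, had 8 of 27 higher and 4 lower at a median span of 81.7 kb, but 7 and 7 after quantile normalization. The regulatory subunit Pik3r1 was higher by 2.96, the catalytic Pik3cg by 2.11 and the phosphatase Inpp4b by 2.49. The protein kinase Sgk1 was also higher (6.81). mTORC1 and amino acid sensing genes had 6 of 34 higher and 7 lower (median span 21.9 kb). Rictor, which defines mTORC2, was higher by 2.05, and Rragd and Fnip1 of lysosomal amino acid sensing by 5.24 and 1.99. Diacylglycerol kinases and protein kinases C had 6 of 18 higher and 4 lower (median span 96.6 kb). Protein tyrosine phosphatases had 5 of 34 higher and 11 lower (median span 93.6 kb), with Ptpn4 and Ptpn22 higher (1.97 and 0.86) and Ptpn5 lower (-4.16). SOCS genes, feedback inhibitors of cytokine receptors, had 4 of 8 higher and 1 lower (median span 24.2 kb), with Socs4 and Socs6 at 1.89 and 1.12 and Cish at -0.59. RGS genes, which shorten G protein signals, had 3 of 19 higher and 0 lower (median span 40.3 kb), Rgs1 and Rgs16 by 2.69 and 1.33. T cell receptor proximal genes had 8 of 31 higher and 5 lower (median span 55.7 kb), turned to 6 against 7 by quantile normalization, with the Tec family kinases Txk and Tec higher (2.2 and 1.16).

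Interferon-linked genes moved both ways. Interferon-inducible GTPases, which attack intracellular pathogens, had 7 of 12 higher and 1 lower (median span 18.2 kb), with a median of 0.70, Iigp1, Irgm1 and Gbp6 being higher by 2.97, 1.61 and 1.42. The wider set of interferon-stimulated genes had 8 of 32 higher and 10 lower (median span 14.2 kb), which centring turned to 8 against 6, with Parp14 and Ifi47 higher (1.69 and 1.55) and the RNA sensor Ifih1 lower (-1.43). Of the aryl hydrocarbon receptor and its targets 4 of 9 were higher and 0 lower (median span 27.1 kb), Cyp1a1, Tiparp and the repressor Ahrr by 2.39, 1.2 and 0.81. The receptor's core site TNGCGTG lay in 1 of 7 of these promoters, that of Ahrr, against 8.0% over all genes. In the Wnt pathway, 7 of 40 were higher and 5 lower (median span 25 kb), with Wls, which exports Wnt proteins, at 2.18 and the destruction complex gene Apc at 1.68.

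The largest differences between the iTreg groups were in the effector genes Gzmb, Ifng and Il2. Gzmb read 6.66, 6.7 and 6.89 with purified TGFβ, 11.8, 11.68 and 11.63 with platelet TGFβ and 10.18, 10.11 and 10.03 in Tconv. The purified-TGFβ arrays were thus lowest and the platelet arrays highest, with no overlap among the 3 groups, and purified TGFβ was lower than platelet TGFβ by 31-fold (limma adjusted p = 2.16e-10). Ifng read 5.71, 5.29 and 5.75, 10.49, 10.47 and 10.39 and 5.95, 5.95 and 5.74 in the same order, high with platelet TGFβ and low in the other groups. It was 29.2-fold lower with purified than with platelet TGFβ (limma adjusted p = 3.3e-09), but differed from Tconv by -0.29, which was not called. The death ligand Fasl and the chemokine Ccl3 were lower with purified than with platelet TGFβ, by log2 differences of -2.26 and -3.14. Of 13 TNF ligands 7 were lower with purified TGFβ and 1 higher, of 17 NFAT, NR4A and EGR factors 6 lower and 1 higher, and of 17 NF-κB genes 5 lower and 0 higher. Over all genes 1.54% were lower and 2.57% higher between the iTreg groups. Plekhd1 read 6.87, 6.89 and 7.19 with purified TGFβ and 3.54, 3.79 and 3.31 with platelet TGFβ, close to the 3.31, 3.31 and 3.24 of Tconv. Aqp3, Ctla2b and Emp1 were in between with platelet TGFβ, and higher with purified TGFβ by 2.43, 2.38 and 2.06. Camk2n1, Ndrg4 and Tph1, the rate-limiting enzyme of serotonin synthesis, were higher by 2.31, 2.26 and 2.28.

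**Figure D5:**
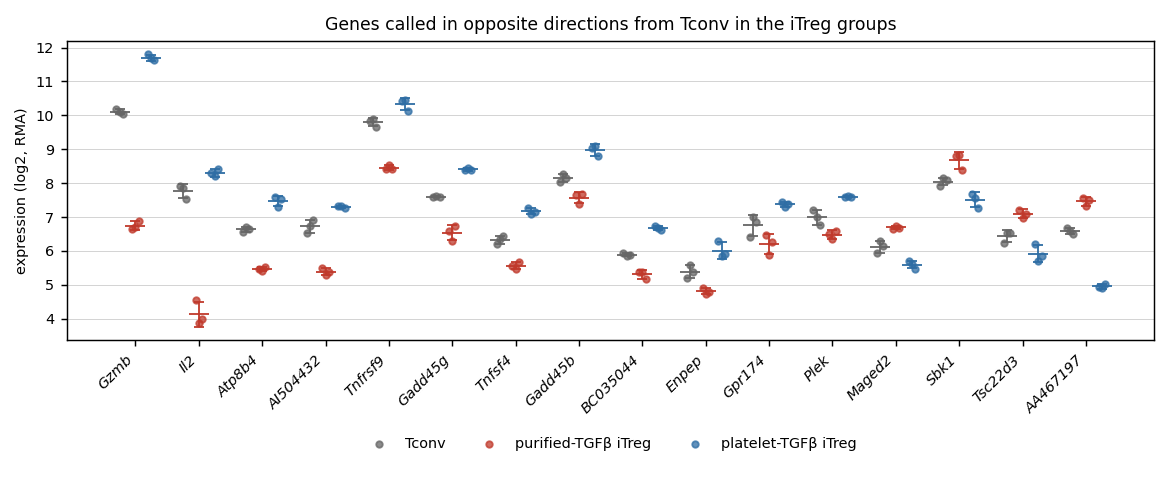
Log2 RMA expression (vertical axis) of the 16 genes called in opposite directions against Tconv in the iTreg groups, on each of 3 Tconv (grey), 3 purified-TGFβ (red) and 3 platelet-TGFβ (blue) arrays, with bars for the mean and SD. For 12 genes the purified-TGFβ mean lies below and the platelet-TGFβ mean above Tconv, and for Maged2, Sbk1, Tsc22d3 and AA467197 the order is reversed.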

How the data were processed

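RNA from 9 cultures or cell preparations was hybridised to 1 array each, 3 per group. The authors deposited log2 expression values made by RMA, per the series' design text (software Affymetrix Expression Console), which background-corrects, quantile normalizes and summarises probe sets. Their lists kept changes of at least 1.4-fold at 10% false discovery, with tests in Partek Genomics Suite 6.6. RMA compresses values near background, so folds of dim genes are understated. No detection calls came with the values.

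The table held 45101 probe sets, of which 64 controls were left out. Of the rest 34945 had 1 symbol in the platform annotation, 932 several and 9160 none. Contrasts were fitted with limma 3.58.1 in R 4.3.3 (lmFit and eBayes) over all 9 arrays with 1 mean per group, two-sided, with Benjamini-Hochberg adjustment over 45037 probe sets. Tables and plots used Python 3.11.15, pandas 2.3.3 and matplotlib 3.10.9. Replicate arrays correlated at 0.994 to 0.997 within Tconv and purified-TGFβ iTreg. Simulated data had independent noise for each probe set and no shift of whole groups. In them the fit recovered 67.7% of 65 changes of 0.6, 93.5% of 62 of 1 and 100% of 73 of 2 (log2). There were 6 false calls among 45037 simulated probe sets, a setting that does not measure errors from scaling, animal or sex.

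Members, lists, motifs and rules were chosen with earlier results of these data known. Named were the 5 called list members lowest in adjusted p plus up to 4 for their role, called genes ranked 11 to 40 by size in each direction without overlap of arrays, sex-linked genes, Foxp3, Il2ra, and the 10 largest differences each way from platelet-TGFβ iTreg with all genes opposed to it. Lists are described by counts and medians, without a test. Promoters and spans came from RefSeq tables of GRCm38.p6, the build of those tables alone.

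Alternatives were quantile normalization, centring of medians, leaving out the dimmest 40% of probe sets, a variance trend, unmoderated ANOVA contrasts, only the groups compared, the replicate number as block, averaging probe sets by gene, changed cutoffs and dropping arrays singly.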

Additional observations from a re-analysis of the deposited data

Results flagged for a closer look

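For 16 genes the calls against Tconv went in opposite directions in the iTreg groups. Each call needed a log2 difference above 0.5, so the selection itself set purified and platelet TGFβ far apart in these genes, and their differences are given as a description, with no test. Lower with purified and higher with platelet TGFβ were the cytotoxic protease Gzmb and the cytokine Il2, which differed between the iTreg groups by -4.95 and -4.16 on the log2 scale. The costimulatory receptor Tnfrsf9 and ligand Tnfsf4 differed by -1.88 and -1.6, and the stress-induced Gadd45g and Gadd45b by -1.86 and -1.41. Atp8b4, a lipid flippase, differed by -2.0, the peptidase Enpep by -1.21, the lysophospholipid receptor Gpr174 by -1.18 and Plek, a protein kinase C substrate, by -1.12. The unnamed transcripts AI504432 and BC035044 differed by -1.92 and -1.37. In the other direction, higher with purified and lower with platelet TGFβ, were Tsc22d3, the glucocorticoid-induced leucine zipper (1.18), the kinase gene Sbk1 (1.17), Maged2 (1.1) and AA467197 (2.5). Both calls of a gene share its Tconv arrays.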

How the results depend on the processing

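The 5339 genes called against Tconv and the 748 against platelet-TGFβ iTreg stayed within 1.5 times that count under every alternative of normalization, filter, variance and samples that was run, and changed with the cutoffs. With no fold cutoff 11542 and 1768 genes were called, and at an adjusted p under 0.05 with a 2-fold change 2033 and 169. Leaving out each array gave 5082 to 5764 and 720 to 754. Of the calls against Tconv 49.3% were higher, but 38.6% after quantile normalization, 56.5% after centring, 32.8% without a fold cutoff and 69.7% at the stricter cutoff.

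Replicate numbers are shared by the groups, but deviations of same-numbered Tconv and purified-TGFβ arrays correlated at -0.059, -0.123 and 0.085, so the numbers were not taken as pairs. Between the iTreg groups the values were 0.194, 0.262 and 0.092. The replicate block gave 5339 and 745 calls.

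Of 690 genes checked singly 688 were called, and 72 lost the call or turned under some alternative. This set did not take in every gene named above, so a named gene without a flag was not always checked. Itga5 (-0.52), for example, was not among the 72. It was the fall nearest the cutoff among integrin chains, which had 4 lower but 3 after centring. Psmf1 turned to 0.41 with the mean of its probe sets. Of the 149 family balances 19 turned under another scaling. Others came out even, such as RUNX and GATA factors (4 and 4), chemokine receptors (5 and 5) and RGS genes (2 and 2) after quantile normalization. Values near background are compressed by RMA, and 3 arrays a group limit the precision.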

Other observations

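For 61 genes 1 probe set was called higher and another lower. Abce1, a ribosome recycling factor, had probe sets at 1.70 and -0.92 (log2, purified-TGFβ iTreg minus Tconv), the higher of them at a mean signal of 9.44 and the lower at 5.70. Wdr12, of ribosome biogenesis, had 0.86 at a mean signal of 5.68 and -0.84 at 9.55. Mrpl15, a mitochondrial ribosomal protein, had 1.20 and -0.82, and Cenpw, a kinetochore protein, 1.24 and -0.80. Gna13, a G protein subunit, had 1.34 and -0.76 at mean signals of 9.44 and 8.83, both bright.

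Of the probe sets that stood for their genes 49.3% of those called were higher, against 69.4% of the other named probe sets (3268 higher and 1440 lower). The 9160 probe sets not listed in the annotation, which stay unnamed here, had 951 higher and 422 lower.

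Igha, the constant region of immunoglobulin A, read 5.5, 5.03 and 4.76 in Tconv, 7.27, 7.42 and 7.38 with purified TGFβ and 4.99, 5.19 and 4.7 with platelet TGFβ. Only the purified-TGFβ arrays were raised, by 2.26 against Tconv and 2.4 against platelet TGFβ (limma adjusted p = 7.23e-07 and 6.93e-06). Of the 9 B cell markers measured 0 were higher than in Tconv and 1, Cd79b, was lower (-1.46). Their median signal was 3.8, dim enough for RMA to compress changes. The immunoglobulin gene Ighm had a probe set higher than in Tconv by 0.94, at a mean signal of 9.76, and another lower (-0.67). The part of B cells in these values was not tested.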
